A study of Mus musculus with 28 samples.

Results

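Control growth plate and periosteal progenitors were compared by bulk RNA-seq, using all 6 control RNA-seq libraries among the 28 libraries of the study. They were chosen by their labels: 3 libraries of growth plate skeletal stem cells (gpSSCs) and 3 of periosteal skeletal stem cells (pSSCs), numbered 1 to 3 in each population. The study crossed mice carrying a floxed Zmpste24 (Z24) allele, which encodes the protease that matures prelamin A, with a Prx1-Cre line that is active in limb mesenchyme, and asked how loss of Z24 affects these cells. The question here is how the populations differ in the control animals. The sorted cells were marked by Ai9, a red reporter at Rosa26 that Cre switches on. The study names Prx1-Cre; Z24 fl/+; Rosa26-Ai9 controls for its single-cell libraries and for differentiation cultures of these sorted cells, and Prx1-Cre; Rosa26-Ai9 controls for their colony assay, and the genotype of the control bulk libraries is not given in the sources used here. The genotype field of the labels gives Z24 fl/fl for control and conditional knockout (CKO) libraries alike, so the group was taken from the sample titles. The CKO mice used below as separate libraries were labelled Prx1-Cre; Z24 fl/fl. All mice were labelled 20 weeks old. Each RNA-seq library was built from 1000 sorted Ai9+ cells, gated against CD31, CD45 and Ter119. gpSSCs were Ai9+ CD73+ cells of collagenase-digested growth plates, and pSSCs were Ai9+ Sca1+ cells of periosteum digested with collagenase and dispase. Tissue, sort gate and digestion changed together, so their parts in any difference cannot be told apart. How many mice stand behind a library is not given in the sources used here. The p-values below therefore measure only a spread between libraries. That spread was estimated with the CKO libraries included and, for each gene, drawn toward that of the other genes.

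Bones of the limb lengthen at the growth plate, where resting chondrocytes feed a proliferating column, exit into a prehypertrophic state marked by Ihh and Pth1r, and enlarge as hypertrophic chondrocytes that make type X collagen before the matrix is mineralised and replaced by bone. The chondrocyte matrix is built from type II, IX and XI collagens and the proteoglycan aggrecan, under the control of Sox9, Sox5 and Sox6. The periosteum is the fibrous sheath of bone, whose inner layer holds progenitors that thicken bone and repair fractures. Its outer layer is rich in type I and III collagens, small leucine-rich proteoglycans and elastic microfibrils.

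The libraries held 2366909, 3196895 and 5035209 counts for gpSSCs 1, 2 and 3, and 1333260, 3040833 and 4970995 counts for pSSCs 1, 2 and 3. Levels are given as normalised CPM, counts scaled to a common library total with the TMM factor of edgeR. Library 1 of each population stood apart from libraries 2 and 3. Thinned to 1333260 counts each, gpSSC libraries held 12463, 15298 and 15181 genes and pSSC libraries 12082, 14418 and 14263, so library 1 held fewer genes at the same depth in both. The first principal component, with 61.9% of the variance, separated library 1 from the others, and the second, with 24.5%, separated the populations. Libraries 2 and 3 of a population were near copies. Their difference, as chi-square divided by its degrees of freedom over genes whose counts in the pair summed to 5 to 99, was 0.839 in gpSSCs and 0.972 in pSSCs, within sampling noise, and 10.2 to 14.2 for pairs with library 1. Over genes with at least 20 counts the same measure was 1.59 and 1.91 for libraries 2 and 3. Libraries 2 and 3 were therefore summed and counted as 1 sample, which leaves 2 samples per population.

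Same-numbered libraries were compared with each other. Of 12151 genes tested, 451 (3.71%) differed at an adjusted p under 0.05 by the edgeR quasi-likelihood test blocked on replicate number. These are the genes called higher or lower below. Of these, 181 (1.49% of the genes tested) were higher in gpSSCs and 270 (2.22%) were higher in pSSCs. The counts of each list below are to be read beside these shares. The median log2 difference, gpSSCs minus pSSCs, was 1.96 over the genes higher in gpSSCs, −1.96 over those higher in pSSCs and 0.08 over all genes tested. The 3 libraries of one population lay wholly above the 3 of the other for 417 of the 451 genes, and 450 had the same sign in library 1 and in libraries 2 and 3. Of all 12151 genes tested, 1774 lay wholly higher in gpSSCs and 1585 in pSSCs, and 3763 were positive and 2971 negative in both. The blocked test itself favours genes with the same sign in both numbers, so these counts describe the called genes and support nothing. The calls rest on the block. Without it, the same edgeR fit called 0 genes in either direction, with 318 higher in gpSSCs and 478 higher in pSSCs at an unadjusted p under 0.05. Without gpSSC control library 1 the fit called 96 and 66 genes, and without pSSC control library 1 it called 115 and 155. With library 1 left out of all groups, so that near copies stood as the only replicates, 4259 and 4299 genes were called. DESeq2 called 302 and 645 genes with the block, and 485 and 599 on the 3 against 3 control libraries without it. In the plot of the differences within each number, most of the called genes lie in the corners where both comparisons have the same sign.

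**Figure D1:**
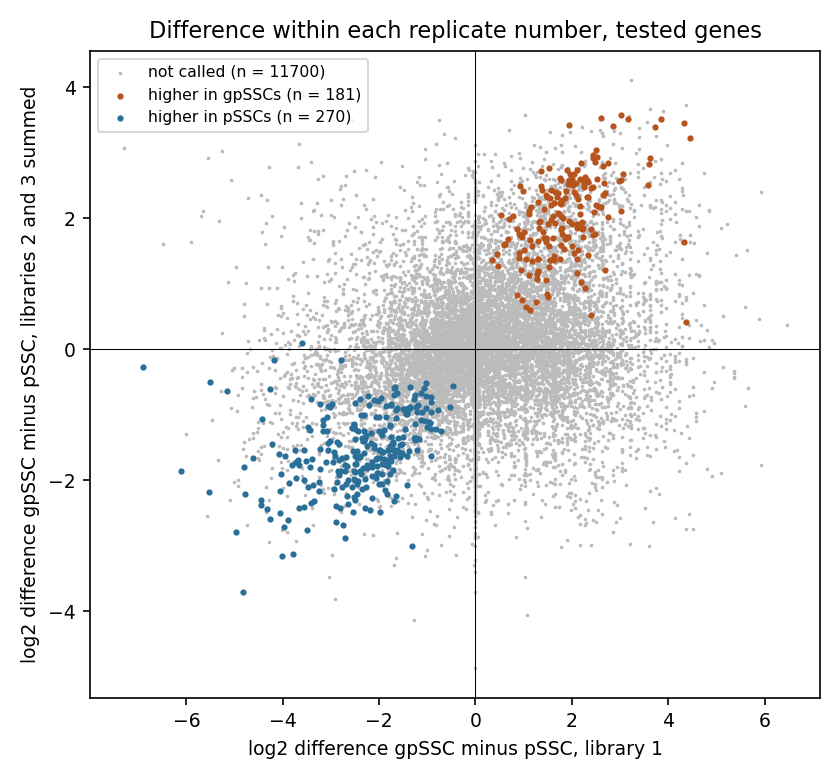
Log2 difference in normalised CPM, gpSSCs minus pSSCs, for library 1 (horizontal axis) and for libraries 2 and 3 summed (vertical axis), one point per tested gene. The 181 genes higher in gpSSCs lie at the upper right and the 270 higher in pSSCs at the lower left, with 1 called gene of opposite sign in the 2 comparisons.

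The genes behind the sort and the lineage label were read first, as a check of the labels and not as a result. Nt5e, which encodes CD73, stood at 248, 194 and 198 normalised CPM in gpSSC libraries 1, 2 and 3 and at 55.3, 54.9 and 52.5 in pSSC libraries 1, 2 and 3. Ly6a, which encodes Sca1, stood at 304, 853 and 809 in gpSSCs and 1243, 2698 and 2767 in pSSCs. Both genes differed in the direction of the gate without overlap, and both were detected in each population. Prrx1, the gene whose enhancer drives Prx1-Cre, was present in every library, at 45.3, 103 and 91.5 in gpSSCs and 624, 314 and 344 in pSSCs. Z24 itself was low, at 4.70, 14.9 and 16.1 in gpSSCs and 0.839, 15.8 and 16.3 in pSSCs, and did not pass the test (log2 difference 1.09 ± 1.27 SE, adjusted p = 0.741). Here and below, errors of log2 differences are approximate standard errors, the absolute log2 difference divided by the square root of the edgeR F statistic. The fit had 2 control samples per population, with the CKO samples added for the estimate of the spread.

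Most cartilage matrix genes were higher in growth plate cells. Of the 21 genes of the cartilage matrix list, 19 were higher in gpSSCs and 0 were higher in pSSCs, with a median log2 difference of 2.19. Here, and for each list below given with 0 calls in a direction and no further count, edgeR had 0 genes in that direction at an unadjusted p under 0.05 as well, and DESeq2 called 0 with and without the block. The 3 gpSSC libraries lay above the 3 pSSC libraries for all 21 genes, compared with 14.6% of all genes tested. All 7 collagens of the list were called: Col2a1, Col9a1, Col9a2, Col9a3, Col11a1, Col11a2 and Col27a1. Col2a1, the main collagen of cartilage (chr15:97975602-98004695, mm10), stood at 25259.5, 15254 and 15306 normalised CPM in gpSSCs and 4557, 2249.8 and 1971 in pSSCs. Every gpSSC library exceeded every pSSC library, by 6.64-fold in the fit (log2 difference 2.73 ± 0.17, adjusted p = 3.63e-12). Acan, which encodes the core protein of aggrecan (chr7:79053483-79115099), stood at 2978, 4938 and 3969 in gpSSCs and 506, 419.8 and 377 in pSSCs, again without overlap (log2 difference 3.09 ± 0.24, adjusted p = 2.92e-10).

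The minor collagens followed the same order. Col9a1, a chain of the type IX collagen that coats type II fibrils, stood at 1886, 1601 and 1555 in gpSSCs and 473, 261 and 255 in pSSCs (log2 difference 2.37 ± 0.25). Col11a1, a chain of the type XI collagen inside those fibrils, stood at 2334, 2344 and 2404 in gpSSCs and 597, 436 and 396 in pSSCs (log2 difference 2.31 ± 0.23). Neither gene overlapped between the populations. Epyc, a small proteoglycan of growth cartilage, had the largest log2 difference of the list, 3.42 ± 0.60 (adjusted p = 4.11e-04), with 68.8, 143 and 142 CPM in gpSSCs and 7.55, 13.6 and 12 in pSSCs. Cnmd, the cartilage antiangiogenic protein chondromodulin, stood at 7445, 4201 and 4583 in gpSSCs and 1524, 971 and 899 in pSSCs, 5.02-fold apart in the fit. Matn3, which links matrix fibrils, stood at 1476, 720.3 and 717 in gpSSCs and 448, 127 and 120.0 in pSSCs, and was higher in library 1 than in the others in both populations. Comp, the cartilage oligomeric matrix protein, differed less, at 3083, 4026 and 4100.5 in gpSSCs and 1444, 1409.9 and 1283 in pSSCs (log2 difference 1.42 ± 0.22, adjusted p = 5.96e-05). The members that did not pass the test were Prelp (0.74 ± 0.23, adjusted p = 0.0663) and Matn1 (2.83 ± 0.95, adjusted p = 0.101). The count of 19 was the same without gpSSC control library 1 and without pSSC control library 1, and was 0 without the block.

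Cartilage transcripts were also present in pSSCs. Summed over the list, they came to 80822, 68295 and 69285 normalised CPM in gpSSC libraries 1, 2 and 3 and to 21138, 14932 and 13594 in pSSC libraries 1, 2 and 3. Whether this comes from transcripts made by the Sca1+ cells or from other cells in the sort was not tested. In bulk samples, fewer cells of a type and less RNA per cell cannot be told apart.

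Of the transcription factors that govern chondrocytes, 4 of 8 tested were higher in gpSSCs and 0 were higher in pSSCs (median log2 difference 1.63). Sox9, the master factor of cartilage (chr11:112782224-112787760), stood at 1742, 1029 and 1014 normalised CPM in gpSSCs and 705, 284 and 269.9 in pSSCs (log2 difference 1.65 ± 0.25, adjusted p = 6.45e-05). The populations did not overlap, and library 1 held more Sox9 than libraries 2 and 3 in both. Its partner Sox6 stood at 108, 58.6 and 58.2 in gpSSCs and 13.4, 9.61 and 9.89 in pSSCs (log2 difference 2.85 ± 0.63, adjusted p = 0.00478), and Sox5 at 151, 161 and 164 in gpSSCs and 52.8, 63.3 and 67.9 in pSSCs (log2 difference 1.46 ± 0.40, adjusted p = 0.0315). Both were separated between the populations, Sox6 by 7.22-fold and Sox5 by 2.74-fold. Mef2c, which drives chondrocyte hypertrophy, stood at 207, 220.5 and 223 in gpSSCs and 64.6, 58 and 52 in pSSCs (adjusted p = 0.00147). The factors that did not pass the test were Foxa2 (2.69 ± 1.13), Foxa3 (1.62 ± 0.48), Shox2 (0.55 ± 0.37) and Trps1 (−0.20 ± 0.50), and Nkx3-2 was too low to be tested. Trps1 turned positive without gpSSC or pSSC control library 1 (−0.21 to 0.81 with 1 control library left out). Without gpSSC control library 1 the count of called factors was 2.

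Of 16 markers of the growth plate zones, 10 were higher in gpSSCs and 0 were higher in pSSCs (1 at an unadjusted p under 0.05, and 0 by DESeq2; median log2 difference 1.78). All 4 prehypertrophic markers and 6 of 8 hypertrophic markers were called. Of 4 resting zone markers, edgeR called 0, with 1 lower in gpSSCs at an unadjusted p under 0.05, and DESeq2 called 0 as well. Among the resting zone markers, Pthlh, the ligand that keeps chondrocytes from maturing, stood at 44, 34.7 and 27.9 normalised CPM in gpSSCs and 7.55, 63.3 and 60.3 in pSSCs, where the libraries overlapped (log2 difference 0.76 ± 0.74, adjusted p = 0.691). The sign of Pthlh turned without gpSSC or pSSC control library 1 (−0.58 to 0.83 with 1 control library left out). Sfrp5 (1.08 ± 0.70), Gas1 (−1.14 ± 0.38) and Grem1 (0.84 ± 1.17) did not pass the test either. The zones were not tested against each other.

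Among prehypertrophic markers, Pth1r, the receptor for Pthlh (chr9:110722085-110747145), stood at 1706, 1386 and 1435 in gpSSCs and 322, 201 and 191 in pSSCs (log2 difference 2.70 ± 0.25, adjusted p = 2.29e-08). Ihh, the hedgehog ligand of the growth plate, stood at 86.8, 262 and 238 in gpSSCs and 18.4, 54.9 and 40.5 in pSSCs (log2 difference 2.40 ± 0.47, adjusted p = 0.0014). Both were separated between the populations, while Ihh was lowest in library 1 of each. Fgfr3, the receptor that restrains chondrocyte growth, was 3.91-fold higher in gpSSCs (adjusted p = 0.0205), and Smpd3, a sphingomyelinase needed for mineralisation, had a log2 difference of 1.10 ± 0.31 (adjusted p = 0.0427).

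Among hypertrophic markers, Ibsp, the mineral-binding bone sialoprotein (chr5:104299171-104311469), stood at 47948, 7928 and 9438 in gpSSCs and 7922, 1376 and 1309 in pSSCs. It was 6.57-fold higher in gpSSCs in the fit (log2 difference 2.72 ± 0.16, adjusted p = 8.28e-13). Library 1 of gpSSCs stood far above the others, and pSSC library 1 came close to gpSSC library 2, so the populations nearly met across numbers while each number gave a similar difference (2.64 in library 1 and 2.79 in libraries 2 and 3). Col10a1, the type X collagen of hypertrophic cartilage, stood at 1036, 639 and 679.8 in gpSSCs and 216, 128 and 108 in pSSCs (log2 difference 2.44 ± 0.31). Mmp13, the collagenase of terminal chondrocytes, stood at 501, 270.1 and 266 in gpSSCs and 232, 67.6 and 58.2 in pSSCs (log2 difference 1.67 ± 0.35). Neither gene overlapped, although pSSC library 1 lay within a short distance of gpSSC libraries 2 and 3 for Mmp13. Alpl, the phosphatase that starts mineralisation, was 6.38-fold higher in gpSSCs, Panx3, a channel of mature chondrocytes and osteoblasts, 5.19-fold, and Spp1, the matrix phosphoprotein osteopontin, 2.63-fold. Runx2, the factor that directs hypertrophy and osteoblast fate, had a log2 difference of 1.88 ± 0.56 and missed the threshold (adjusted p = 0.0574), and Vegfa had one of −0.41 ± 0.76. Vegfa turned positive without gpSSC control library 1 (−0.53 to 0.20 with 1 control library left out).

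Osteoblasts also mineralise matrix and share genes with hypertrophic chondrocytes. Of 8 osteoblast markers tested, 2 were higher in gpSSCs and 0 in pSSCs (median log2 difference 1.74). Bglap, the gene for osteocalcin, stood at 3669, 5601 and 6611 normalised CPM in gpSSCs and 1467, 1231 and 1104 in pSSCs, without overlap (log2 difference 2.02 ± 0.25, adjusted p = 1.89e-06). The second call, Bglap2, is a near-identical neighbour, so reads could be split between these genes. Sp7, the osteoblast factor that acts after Runx2, stood at 62.4, 75.4 and 76.1 in gpSSCs and 19.3, 19.8 and 14.3 in pSSCs and missed the threshold (adjusted p = 0.0623). Enzymes and transporters of sulphated glycosaminoglycan synthesis, the sugar chains of aggrecan, were higher in gpSSCs for 4 of 19 genes tested, with 0 higher in pSSCs (1 at an unadjusted p under 0.05, and 0 by DESeq2). They included Papss2, which makes the sulphate donor and stood at 336, 337 and 342 in gpSSCs and 101, 64.2 and 56 in pSSCs (log2 difference 2.19 ± 0.34), Chst11 (1.60 ± 0.37), a chondroitin sulphotransferase, and Xylt1 (1.84 ± 0.43), which starts the chain. Without gpSSC control library 1 this count was 1 of 19.

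Of 6 articular surface markers tested, edgeR called 0 in either direction, with 1 higher in gpSSCs at an unadjusted p under 0.05, and DESeq2 called 0 with the block and 1 without it. Prg4, the gene for the joint lubricant lubricin, stood at 1225, 16745 and 19026 normalised CPM in gpSSCs and 2328, 8397 and 8642 in pSSCs (log2 difference 0.13 ± 0.32, adjusted p = 0.9, −0.015 with RLE size factors, and 0.061 to 0.81 with 1 control library left out). It was low in library 1 and high in libraries 2 and 3 of both populations.

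**Figure D2:**
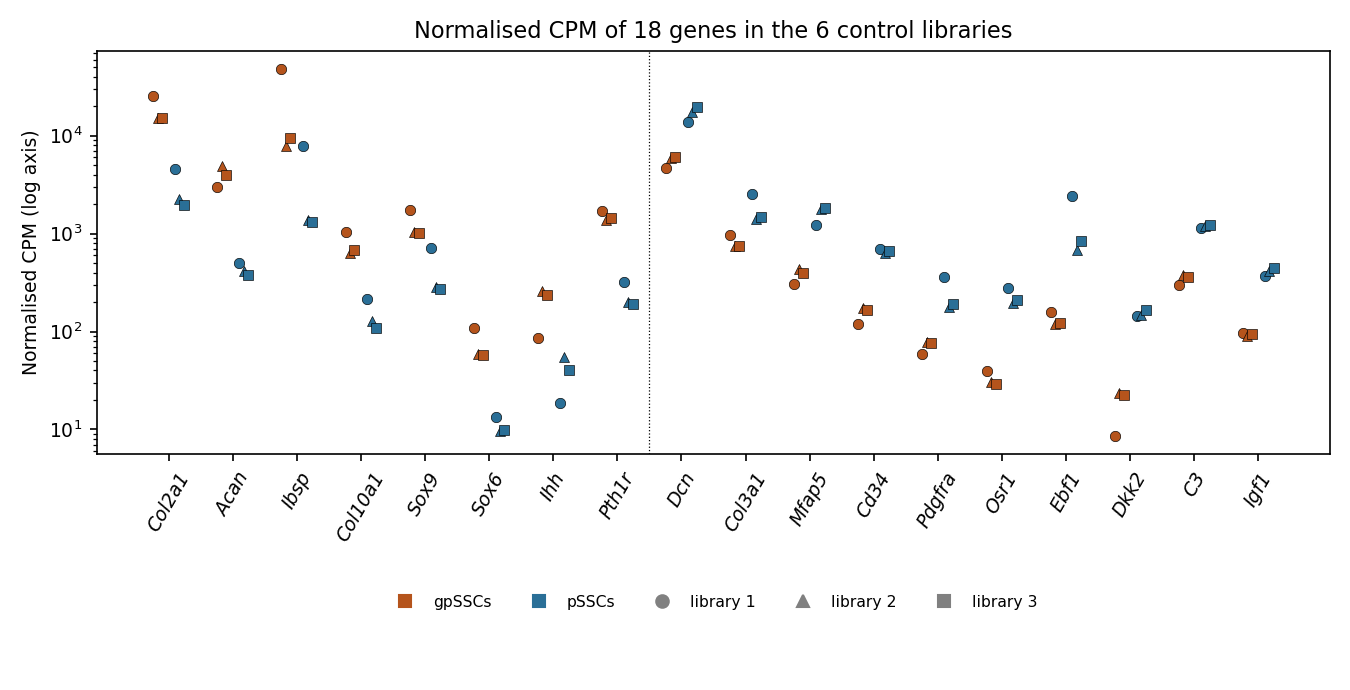
Normalised CPM (log axis) of 18 genes in the 6 control libraries, gpSSCs in orange and pSSCs in blue, with a circle for library 1, a triangle for library 2 and a square for library 3. To the left of the dotted line each gene lies higher in gpSSCs and to the right higher in pSSCs, and libraries 2 and 3 nearly coincide.

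Most listed markers of connective tissue progenitors were higher in periosteal cells. Of 15 progenitor markers tested, 9 were higher in pSSCs and 0 were higher in gpSSCs, with a median log2 difference of −1.89. At an unadjusted edgeR p under 0.05, 1 was higher in gpSSCs, and DESeq2 called 1 higher in gpSSCs with the block and 1 without it. The summed level of the list was 10705, 11182 and 10504 normalised CPM in gpSSC libraries 1, 2 and 3, and 60036, 32176 and 32191 in pSSC libraries 1, 2 and 3. The most abundant member was Gsn, the actin-severing protein gelsolin (chr2:35256380-35307892), at 7559.6, 7947 and 7497 in gpSSCs and 45101, 23490.5 and 23389 in pSSCs (log2 difference −2.04 ± 0.20, adjusted p = 3.13e-08). Cd34, a surface sialomucin of stromal progenitors (chr1:194938819-194961279), stood at 118, 175 and 167 in gpSSCs and 691, 629.7 and 667 in pSSCs (log2 difference −2.18 ± 0.30, adjusted p = 1.20e-05). Both genes were separated between the populations. Pdgfra, the PDGF receptor of mesenchymal progenitors, stood at 58.6, 78.5 and 76.3 in gpSSCs and 359.7, 179 and 189 in pSSCs (log2 difference −1.95 ± 0.41, adjusted p = 0.00333).

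Pi16 is a marker of adventitial fibroblasts that serve as a reserve in many tissues, and stood at 118, 169 and 141 in gpSSCs and 494, 597 and 586 in pSSCs (3.86-fold, adjusted p = 1.61e-04). Igfbp6, which binds IGF-II, stood at 2075, 1524 and 1439 in gpSSCs and 11194, 4632 and 4822 in pSSCs (4.06-fold, adjusted p = 4.47e-08). Thy1, a surface glycoprotein of fibroblasts, stood at 8.55, 41.9 and 34.3 in gpSSCs and 52.8, 154 and 156 in pSSCs, where the populations did not overlap but the lowest pSSC library lay close to gpSSC library 2 (adjusted p = 0.0384). Clec3b, Cxcl14 and Anxa3 were the other genes called, at log2 differences between −1.89 and −1.45. Ctsk, a protease that labels periosteal stem cells in lineage tracing, stood at 138, 233 and 229 in gpSSCs and 156, 283 and 283 in pSSCs and did not pass the test (log2 difference −0.18 ± 0.31). Gli1 was the member furthest in the other direction, at 3.61 ± 1.31 (adjusted p = 0.146). The count of called progenitor genes was 5 without gpSSC control library 1 and 6 without pSSC control library 1.

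Fibrous matrix genes were divided. Of 37 tested, 16 were higher in pSSCs and 4 in gpSSCs (median log2 difference −0.51). Among small proteoglycans, 4 of 6 were higher in pSSCs and 0 in gpSSCs (1 at an unadjusted p under 0.05, and 0 by DESeq2). Dcn, the collagen-binding proteoglycan decorin (chr10:97479609-97518143), stood at 4669.6, 5912 and 6116 normalised CPM in gpSSCs and 13906, 17610.1 and 19748 in pSSCs (log2 difference −1.56 ± 0.17, adjusted p = 2.22e-07). Aspn, the related asporin, stood at 359.9, 237 and 234 in gpSSCs and 1415, 650.2 and 775 in pSSCs (log2 difference −1.75 ± 0.27, adjusted p = 5.64e-05). Both were separated between the populations, as were Ogn (−1.56 ± 0.31) and Dpt (−1.58 ± 0.25), whereas Lum, the gene for lumican, stood at 1006, 1803 and 1837 in gpSSCs and 1092, 2219 and 2249.8 in pSSCs and did not pass (log2 difference −0.15 ± 0.21).

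Of the microfibril, elastic fibre and glycoprotein genes, 7 of 14 were higher in pSSCs and 1 in gpSSCs. Mfap5, a microfibril glycoprotein, stood at 307, 435 and 400.2 in gpSSCs and 1219, 1767 and 1826 in pSSCs (4.01-fold, adjusted p = 1.03e-06). Eln, the gene for elastin, stood at 10.7, 12.7 and 13.2 in gpSSCs and 135, 53 and 57.4 in pSSCs (6.99-fold, adjusted p = 0.00665), and was highest in pSSC library 1. Fbn1, the microfibril scaffold fibrillin 1, had a log2 difference of −1.53 ± 0.35, and Fbln1, Fbln2 and Efemp1, of the fibulin family, lay between −2.22 and −1.77. Tnxb, a tenascin of loose connective tissue, stood at 5.98, 13 and 15.7 in gpSSCs and 184, 54 and 54.5 in pSSCs (log2 difference −3.72 ± 0.83, adjusted p = 0.0055). Its libraries did not overlap, but the difference was −4.81 in library 1 and −1.80 in libraries 2 and 3, so library 1 sets its size.

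The collagens and their processing enzymes went in both directions. Col3a1, the collagen of loose and elastic tissue, stood at 961, 748 and 742 in gpSSCs and 2545, 1408 and 1463 in pSSCs (log2 difference −1.13 ± 0.21, adjusted p = 8.49e-04). Col14a1, a fibril-associated collagen, stood at 32.5, 115 and 118 in gpSSCs and 236, 422 and 453 in pSSCs (log2 difference −2.27 ± 0.36). Both were higher in every pSSC library, and Col5a1 (−1.37 ± 0.38) was called in the same direction. Col1a1, the main collagen of bone and ligament, was higher in gpSSCs by 0.89 ± 0.20 on the log2 scale (adjusted p = 0.00693), with 6945, 4431 and 4083 in gpSSCs and 5675, 1745 and 1687 in pSSCs, where pSSC library 1 lay above gpSSC libraries 2 and 3. DESeq2 did not call Col1a1, with or without the block, and called 2 fibrous matrix genes higher in gpSSCs with the block. Sparc, a collagen-binding glycoprotein abundant in mineralising tissue, was 4.0-fold higher in gpSSCs, at 22004, 44985 and 46041 in gpSSCs compared with 6691, 10735 and 9832 in pSSCs. Col12a1 and Pcolce2 were the other genes higher in gpSSCs, and Pcolce, which enhances procollagen cleavage, and Loxl1, which crosslinks elastin, were higher in pSSCs. Without gpSSC control library 1 the fibrous genes higher in pSSCs numbered 8, and without pSSC control library 1 those higher in gpSSCs numbered 2.

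**Figure D3:**
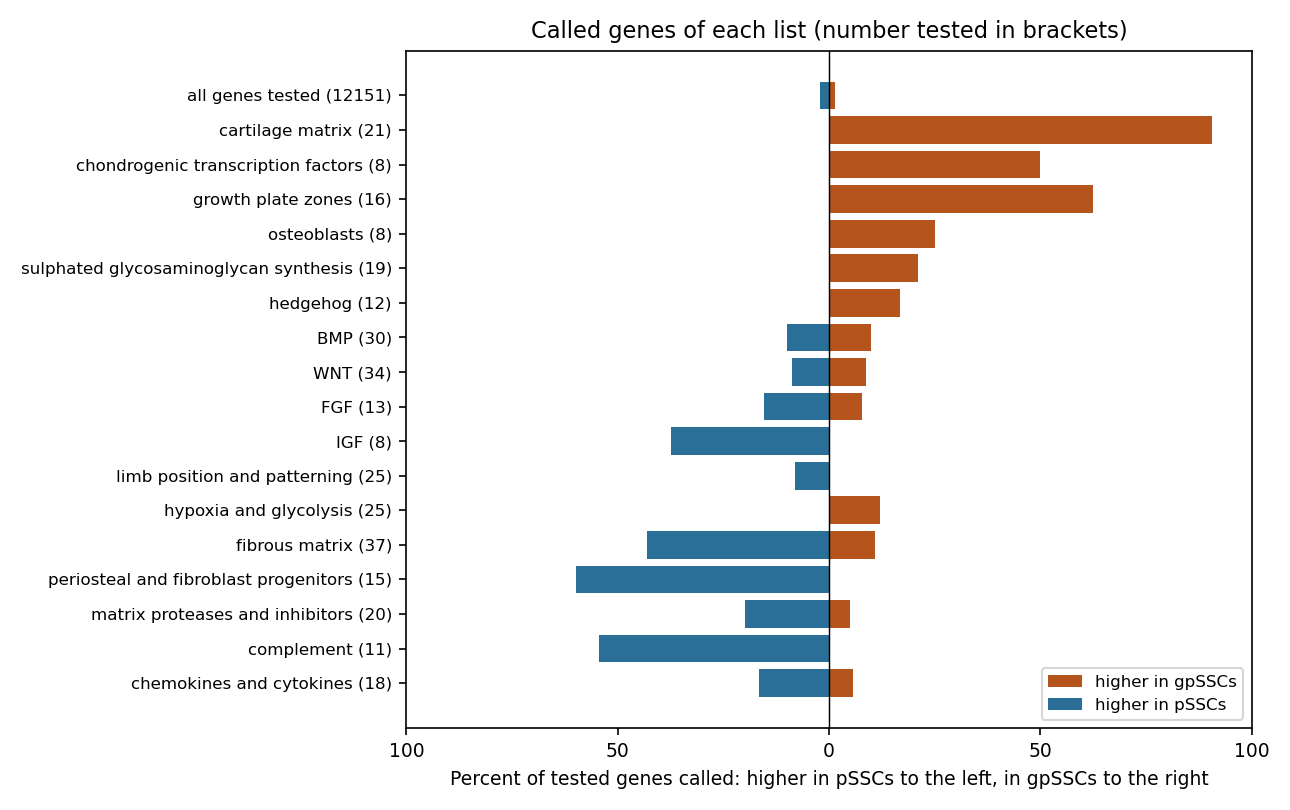
Percent of the tested genes of each list called higher in pSSCs (blue, to the left) or in gpSSCs (orange, to the right), with the number tested in brackets and all 12151 genes tested in the top row. The longest bars are cartilage matrix to the right, 19 of 21 genes, and periosteal and fibroblast progenitors to the left, 9 of 15.

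Several secreted immune factors were higher in pSSCs. Of 11 complement genes tested, 6 were higher in pSSCs and 0 in gpSSCs (median log2 difference −1.01). C3, the central component of the cascade, stood at 296, 374 and 358 normalised CPM in gpSSCs and 1139, 1204 and 1229 in pSSCs (log2 difference −1.77 ± 0.27, adjusted p = 5.53e-05). Serping1, the inhibitor of the first component, stood at 784, 704 and 699 in gpSSCs and 3360.0, 2731 and 2962 in pSSCs (log2 difference −2.01 ± 0.21, adjusted p = 7.71e-08). Both were separated, and the list's other calls were C1ra, C1s1, C4b and Cd55. Without gpSSC control library 1 the complement count was 2. Of 18 chemokines and cytokines, 3 were higher in pSSCs: Cxcl13, which attracts B cells (−2.39 ± 0.43), Il33, an alarmin (−2.29 ± 0.49), and Ccl11, which attracts eosinophils (−2.06 ± 0.36). Tnfrsf11b, the decoy receptor osteoprotegerin that blocks osteoclast formation, was higher in gpSSCs, at 109.8, 359 and 343 in gpSSCs compared with 52, 85.3 and 83.6 in pSSCs (3.16-fold, adjusted p = 0.0047).

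Signalling genes were called in both directions. Over all genes tested, 1.49% were called higher in gpSSCs and 2.22% in pSSCs. In the hedgehog list, 2 of 12 genes tested were called by edgeR, both higher in gpSSCs (DESeq2 with the block called 4 higher and 1 lower): the ligand Ihh and its receptor and target Ptch1, at 117, 108 and 115 normalised CPM in gpSSCs and 47.8, 30.7 and 29.9 in pSSCs (log2 difference 1.65 ± 0.48, adjusted p = 0.0468). In the WNT list, 3 of 34 genes were higher in gpSSCs and 3 in pSSCs. Those higher in gpSSCs were the ligand Wnt4 (2.61 ± 0.75, adjusted p = 0.0459), Rspo3, which amplifies WNT signals (2.40 ± 0.60), and the receptor Fzd9 (1.61 ± 0.45). All 3 higher in pSSCs were secreted WNT inhibitors. Dkk2 stood at 8.55, 23.6 and 22.5 in gpSSCs and 145, 148 and 166 in pSSCs (10.9-fold, adjusted p = 2.74e-04). Sfrp1 stood at 7.27, 35.3 and 39.1 in gpSSCs and 82.2, 124 and 128 in pSSCs (6.34-fold, adjusted p = 0.00444). Sfrp4 stood at 292, 346 and 334 in gpSSCs and 1057, 1026 and 1035 in pSSCs (3.18-fold, adjusted p = 4.71e-05), and none of these inhibitors overlapped between the populations. They are 3 of the 9 WNT inhibitors tested, of which 5 had a positive and 4 a negative log2 difference (median 0.68). At an unadjusted edgeR p under 0.05, 2 inhibitors were higher in gpSSCs and 4 in pSSCs. DESeq2 called 1 higher in gpSSCs and 4 in pSSCs, with the block and without it.

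In the BMP list, 3 of 30 genes were higher in each population. The ligand Bmp8a (3.09 ± 0.77), the inhibitor Chrdl1 (1.82 ± 0.41) and the target Id2 (1.17 ± 0.28) were higher in gpSSCs. The ligand Bmp4 was higher in pSSCs, at 31.6, 27 and 25.5 in gpSSCs and 216, 92.7 and 105 in pSSCs (log2 difference −2.39 ± 0.57, adjusted p = 0.0104), as were the inhibitors Fst (−1.84 ± 0.51) and Fstl1 (−1.81 ± 0.25). In the FGF list, the receptor Fgfr3 was higher in gpSSCs and 2 ligands, Fgf18, which acts on Fgfr3 in the growth plate (−2.03 ± 0.44), and Fgf7 (−2.34 ± 0.66), were higher in pSSCs, of 13 genes tested. Fgf18 stood at 42.7, 28.2 and 23.5 in gpSSCs and 211, 96.1 and 87.6 in pSSCs, without overlap. In the IGF list, 3 of 8 genes were higher in pSSCs and 0 in gpSSCs. The growth factor Igf1 stood at 96.2, 89 and 94.9 in gpSSCs and 366, 414 and 444 in pSSCs (4.10-fold, adjusted p = 1.69e-04), and the binding proteins Igfbp5 and Igfbp4 were 2.52-fold and 2.15-fold higher.

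Of 25 tested genes that set position in the limb, edgeR called 2, both higher in pSSCs (8%, compared with 2.22% of all genes tested). Of 12 Hox genes tested, edgeR called 0 in either direction, with 1 higher in gpSSCs at an unadjusted p under 0.05, and DESeq2 called 0 with the block and 1 without it. Of 13 other patterning factors, 2 were higher in pSSCs (4 at an unadjusted p under 0.05), and DESeq2 called 4 with the block and 2 without it. Osr1, a zinc finger factor of limb connective tissue (chr12:9570116-9581500), stood at 39.7, 30.7 and 29.3 normalised CPM in gpSSCs and 278, 195 and 207 in pSSCs (log2 difference −2.73 ± 0.40, adjusted p = 2.91e-05). The difference was nearly the same in library 1 (−2.75) and in libraries 2 and 3 (−2.69). Prrx2, a homeobox gene related to Prrx1, was also called (log2 difference −4.13 ± 0.77, adjusted p = 7.65e-04), but stood at 25.2, 42.5 and 38.9 in gpSSCs and 1210.0, 64.2 and 57.2 in pSSCs. One library, pSSC library 1, carried that difference: it was −5.52 in library 1 and −0.51 in libraries 2 and 3.

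Surface, metabolic and protease genes gave calls in smaller numbers, to be set beside 1.49% (higher in gpSSCs) and 2.22% (higher in pSSCs) of all genes tested. Of 8 skeletal stem cell surface markers tested, Cd200 (1.33 ± 0.33, adjusted p = 0.0141) and Cd24a (2.34 ± 0.46, adjusted p = 0.00156) were higher in gpSSCs and 0 in pSSCs by edgeR (1 in pSSCs at an unadjusted p under 0.05, and 0 by DESeq2 with the block and 1 without it). Of 25 hypoxia and glycolysis genes, 3 were higher in gpSSCs, namely Pfkl and Ldha of glycolysis and the carbonic anhydrase Car12, and 0 in pSSCs (2 in pSSCs at an unadjusted p under 0.05, and 1 by DESeq2 with the block and 1 without it). Of 20 matrix proteases and inhibitors, Mmp2, Mmp11, Adamts2 and the inhibitor Timp2 were higher in pSSCs and the inhibitor Timp3 in gpSSCs (1.67 ± 0.35, adjusted p = 0.00314). In the adipogenic list, 1 of 9 genes was higher in pSSCs, the lipase Lpl (−1.72 ± 0.47).

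Called genes with a gene name were ranked by the smaller of their within-number differences. Predicted gene models (names such as Gm or Rik with a number) were left out, as were genes whose populations overlapped or that were under 20 CPM in a library of the higher one, which left 165 genes higher in gpSSCs and 242 higher in pSSCs. List members could enter this ranking. Among those highest in gpSSCs were Clec3a, a cartilage lectin, at 37.6, 92.1 and 109 normalised CPM in gpSSCs and 2.52, 10.2 and 9.50 in pSSCs (log2 difference 3.67 ± 0.71), and Gpc1, a heparan sulphate proteoglycan of the cell surface, at 42.3, 41.2 and 38.7 in gpSSCs and 5.03, 4.03 and 2.52 in pSSCs. Cpox, an enzyme of haem synthesis (chr16:58670292-58717636), led the ranking at 90.2, 93.3 and 69.4 in gpSSCs and 4.19, 6.82 and 7.37 in pSSCs (log2 difference 4.50 ± 0.84, adjusted p = 8.23e-04). The rest of the first 12 were Epyc, Rhbdl2, Sdc3, Mall, Fxyd3, Ninj2, Ibsp, Acan and Sox6.

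In the other direction Npr1, a receptor for natriuretic peptides (chr3:90450591-90465866), led at 4.27, 4.96 and 4.21 in gpSSCs and 137, 73.2 and 62.2 in pSSCs (log2 difference −4.34 ± 0.77, adjusted p = 4.60e-04). Rarres2, which encodes the chemoattractant chemerin, stood at 54.7, 76.3 and 57.2 in gpSSCs and 922, 647 and 583 in pSSCs (12-fold, adjusted p = 2.29e-08). Ebf1, a transcription factor of B cells, adipocytes and stroma (chr11:44617317-45008091), stood at 159, 120.3 and 122 in gpSSCs and 2439, 678 and 839 in pSSCs (9.01-fold, adjusted p = 3.20e-08). Ebf1 was highest in pSSC library 1. Scg3, a granule protein (−3.94 ± 0.87), Hsd11b1, which activates glucocorticoids inside cells (−3.30 ± 0.82), Anpep, the surface peptidase CD13 (−2.86 ± 0.64), and Inmt, an amine methyltransferase (−3.40 ± 0.48), were also among the first 12, with Dkk2, Osr1, Akap12, Plxna1 and Filip1l.

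Markers of other cells were read over their whole lists. Myeloid, osteoclast, lymphoid, erythroid, basophil and mast cell, endothelial, mural, muscle, tenocyte and marrow stroma markers, 38 tested genes in all, gave 0 calls in either direction by edgeR. At an unadjusted p under 0.05, 6 were higher in gpSSCs and 1 in pSSCs, and DESeq2 called 0 and 1 with the block and 2 and 1 without it. The 6 genes included all 4 erythroid markers tested. Summed myeloid markers stood between 17.5 and 40.9 normalised CPM in gpSSCs and between 17.6 and 38.8 in pSSCs, with Cd68 the most abundant over the 6 libraries together, though at 1.71 and 2.52 in library 1 of gpSSCs and pSSCs. Endothelial markers came to 40.2, 40.3 and 42.8 in gpSSCs and 81.3, 106.7 and 97.9 in pSSCs, with Plvap the most abundant. Globin and other red cell transcripts differed far more by number than by population, at 20.9, 6502 and 6651 in gpSSCs and 24.3, 1847 and 1775 in pSSCs, in spite of the Ter119 gate. Hbb-bs was the most abundant over the 6 libraries together, at 4.27 and 2.52 in library 1 of gpSSCs and pSSCs. Their part in the results was not tested. Of 3 Schwann cell markers tested, Ncmap was higher in gpSSCs (2.28 ± 0.37), and the other 2 were not called, with log2 differences of −0.37 and 5.30.

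Of 18 proliferation genes, edgeR called 0 (median log2 difference 1.56), with 5 higher in gpSSCs at an unadjusted p under 0.05, and DESeq2 called 2 with the block and 1 without it. Mki67 stood at 75.6, 0.310 and 1.0 in gpSSCs and 15.9, 0.310 and 0 in pSSCs, and the summed list at 609, 174 and 189.7 in gpSSCs and 192, 144 and 150.3 in pSSCs, higher in library 1 of each population. Pcna, the member with the highest sum over the 6 libraries, did not follow the list in pSSCs, at 57.3, 45.6 and 49.6 in gpSSCs and 26.8, 54.6 and 54.9 in pSSCs. Of 18 genes of the early stress response to tissue dissociation, Atf3 (1.22 ± 0.30), Dnajb1 (1.37 ± 0.27) and Btg2 (1.12 ± 0.23) were higher in gpSSCs and 0 in pSSCs (median log2 difference 0.32). The populations were digested differently, and the part of digestion in these differences cannot be told apart from that of the tissue. Mitochondrially encoded transcripts took 2.70%, 1.29% and 1.37% of counts in gpSSCs and 2.85%, 1.63% and 1.79% in pSSCs.

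The CKO libraries gave a second comparison of the same populations in cells that share no library with the control ones. Both comparisons came from the same fit, however, and share each gene's spread and the replicate block. The calls in control and CKO cells are therefore not independent. Of the 451 genes called in control cells, 442 (98%) had the same sign in CKO cells, compared with 7537 of all 12151 genes tested (62%). Of the 181 genes higher in control gpSSCs, 121 (66.9%) were also called higher in CKO gpSSCs, and of the 270 higher in control pSSCs, 93 (34.4%) were also called higher in CKO pSSCs. In the opposite direction, edgeR called 0. In all, 308 genes (2.53%) were called between CKO populations, 173 higher in gpSSCs and 135 in pSSCs. All 19 cartilage matrix genes called in control cells were called again, as were 8 of 9 progenitor genes, 8 of 10 growth plate zone genes and 10 of 16 fibrous matrix genes higher in pSSCs. Recurrence in the other lists varied. All 3 IGF genes and all 3 chemokines and cytokines higher in pSSCs were called again, as were 4 of 6 complement genes. Of genes higher in gpSSCs, 3 of 3 BMP genes, 2 of 2 osteoblast markers and 2 of 4 fibrous matrix genes were called again. Among genes higher in pSSCs, 1 of 3 BMP genes, 0 of 2 FGF genes and 0 of 4 matrix proteases and inhibitors were called again.

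For single genes the values in both genotypes stand side by side. Acan had a log2 difference of 3.09 in control and 2.91 in CKO cells, Ibsp 2.72 and 2.68, and Osr1 −2.73 and −2.49. Col2a1 had 2.73 and 1.70, and Col10a1 2.44 and 0.92. Cpox and Npr1, the leading genes of the ranking, had 0.37 and −1.07 in CKO cells and were not called there (adjusted p = 0.907 and 0.607). The difference of the differences was tested as an interaction, and 1 of 12151 genes (0.00823%) passed, Serpina1d, with 574 genes at an unadjusted p under 0.05. That call was lost by DESeq2 with the block (adjusted p = 0.173), with 12 libraries as samples and the block (adjusted p = 0.0536), without the block (adjusted p = 1) and without pSSC control library 1 (adjusted p = 0.338). Cpox did not pass that test (adjusted p = 0.612).

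**Figure D4:**
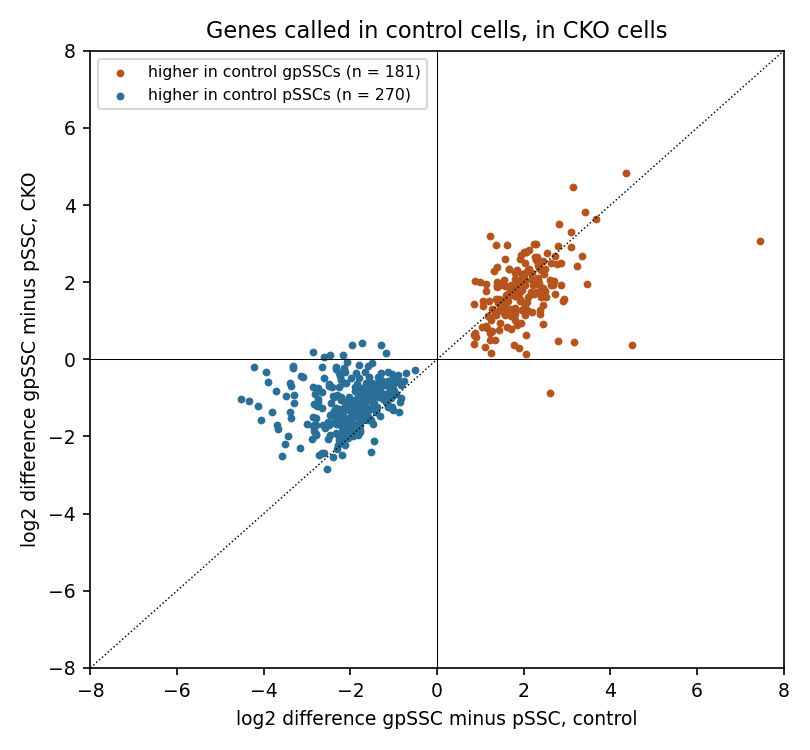
Log2 difference, gpSSCs minus pSSCs, in control cells (horizontal axis) and in CKO cells (vertical axis) for the 451 genes called in control cells, with the line of equal differences dotted. The 181 genes higher in control gpSSCs and the 270 higher in control pSSCs keep their sign in CKO cells for 180 and 262 genes. The genes were chosen for their difference in control cells, so distances from the line are not to be read as an effect of genotype.

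ATAC-seq of control cells gave a readout that does not pass through RNA. The deposited peaks of 3 gpSSC libraries (98549, 93028 and 88095 peaks) and 3 pSSC libraries (63516, 59209 and 79724 peaks) were set against gene starts, taken as the window from 250 bases before to 50 bases after the start of each gene in GENCODE on mm10. Fewer peaks were called in pSSCs. Over the 12146 tested genes with a position, a peak lay at the start of 84.4%, 84.2% and 84.3% in the gpSSC libraries and 82.2%, 82.0% and 83.4% in the pSSC libraries. For the 181 genes higher in gpSSCs the share was 86.2%, 86.7% and 86.2% in gpSSCs and 60.8%, 60.2% and 64.1% in pSSCs. For the 270 genes higher in pSSCs it was 77.4%, 75.6% and 75.9% in gpSSCs and 80.7%, 79.3% and 82.2% in pSSCs. The gap was wide for genes higher in gpSSCs and narrow for genes higher in pSSCs. In the cartilage matrix list, a peak lay at 85.7% of starts in each gpSSC library and at 28.6%, 28.6% and 42.9% of starts in the pSSC libraries, although transcripts of the list were present in every pSSC RNA-seq library.

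**Figure D5:**
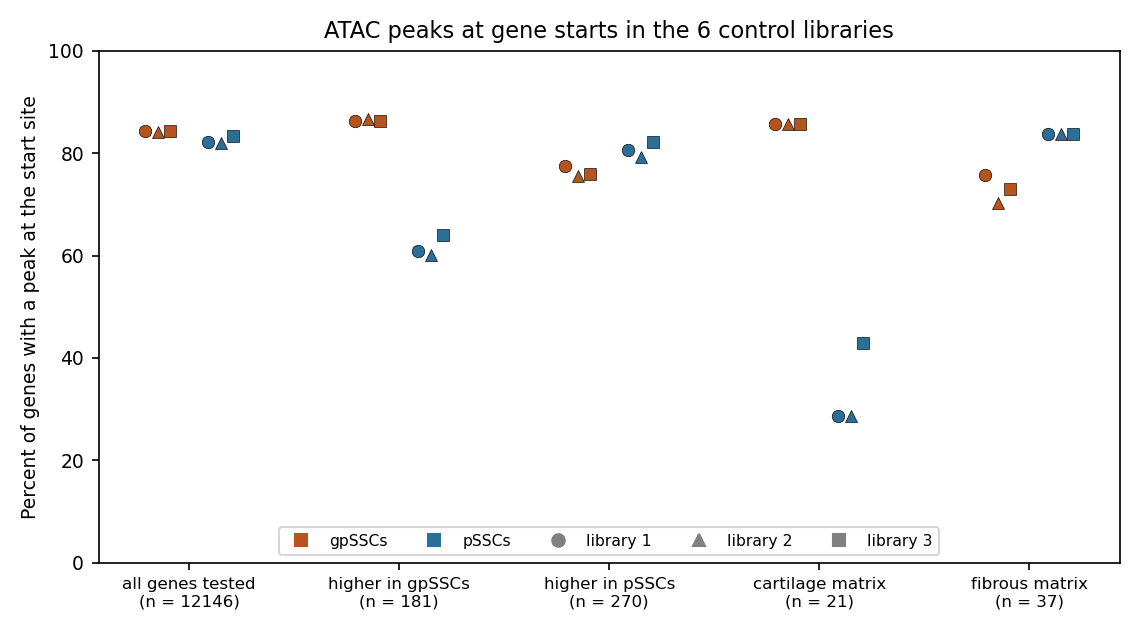
Percent of genes with an ATAC-seq peak at the start site in each of the 6 control ATAC-seq libraries, gpSSCs in orange and pSSCs in blue, for all tested genes, the genes called in each direction and both matrix lists. The pSSC points drop to between 60.2% and 64.1% for genes higher in gpSSCs and to between 28.6% and 42.9% for cartilage matrix genes, while the other sets stay between 70.3% and 84.4%.

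A peak in all 3 gpSSC libraries and 0 pSSC libraries was found at the start of 36 of the 181 genes higher in gpSSCs (19.9%), at 0 of the 270 genes higher in pSSCs and at 1.56% of all genes. These 36 included 9 of the 21 cartilage matrix genes, among them Acan, Cnmd and Comp, and the zone markers Ibsp, Ihh, Mmp13, Panx3 and Spp1. The opposite pattern, a peak in all 3 pSSC libraries and 0 gpSSC libraries, was found at 7 of the 270 genes higher in pSSCs (2.59%) and at 0.329% of all genes. These were Aspn, Ccl11, Igfbp5, Inmt, Mfap5, Ms4a4d and Tnxb, and the 1 such gene among those higher in gpSSCs was Sdc3. Other starts had no such pattern. Sox9, Cd34, Dcn and Gsn had a peak in all 6 libraries, Col10a1, Pth1r and Sox6 had none in any, and Osr1, higher in pSSCs by RNA, had one in all 3 gpSSC libraries and 1 pSSC library. Within 50 kb of the start, a region open in all 3 gpSSC libraries and 0 pSSC libraries was found for 93.4% of genes higher in gpSSCs, 55.9% of genes higher in pSSCs and 67.0% of all genes. A region with the opposite pattern was found for 28.7%, 61.1% and 28.8%. These shares are descriptions of peak calls made separately in each library.

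The sequence before the start is shown for the called zone markers and fibrous matrix genes whose start had a peak in all 3 libraries of one population and none of the other, as the places where RNA and chromatin differed together. Each runs 5′ to 3′ on the gene's strand over the 150 bases before the RefSeq start on GRCm38.p6. Capitals mark ACCACA, the letters that Runx factors bind, searched on both strands (ACCACA or TGTGGT). Ihh lies at chr1:74951673-74951822 (minus strand), Mmp13 at chr9:7272364-7272513, Spp1 at chr5:104434961-104435110, Aspn at chr13:49544293-49544442 and Tnxb at chr17:34670385-34670534 (all plus strand).
Ihh: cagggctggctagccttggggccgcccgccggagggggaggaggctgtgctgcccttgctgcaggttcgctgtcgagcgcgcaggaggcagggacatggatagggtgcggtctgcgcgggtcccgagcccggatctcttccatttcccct
Mmp13: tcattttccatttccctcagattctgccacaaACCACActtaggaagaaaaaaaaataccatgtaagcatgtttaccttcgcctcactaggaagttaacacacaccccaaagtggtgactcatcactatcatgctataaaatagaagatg
Spp1: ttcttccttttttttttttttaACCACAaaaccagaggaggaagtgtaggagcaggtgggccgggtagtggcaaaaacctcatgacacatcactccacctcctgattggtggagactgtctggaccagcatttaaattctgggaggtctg
Aspn: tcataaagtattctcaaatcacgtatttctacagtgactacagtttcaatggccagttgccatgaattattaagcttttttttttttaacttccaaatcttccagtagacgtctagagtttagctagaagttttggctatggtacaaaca
Tnxb: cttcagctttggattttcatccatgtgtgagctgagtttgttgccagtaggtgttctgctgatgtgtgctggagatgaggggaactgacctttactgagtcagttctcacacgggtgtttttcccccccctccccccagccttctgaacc
Mmp13, with 501, 270.1 and 266 normalised CPM in gpSSCs and 232, 67.6 and 58.2 in pSSCs, held the motif 118 bases before the start, and Spp1, with 1089, 3115 and 3054 in gpSSCs and 555, 978 and 907 in pSSCs, held it 128 bases before the start. The windows of Ihh, Aspn and Tnxb did not hold these letters. Of 32851 RefSeq promoters, 8.4% held them in the same 150 bases. A match of this length is a description of the sequence and does not mark a bound site. Ibsp, Panx3 and Mfap5 met the same rule and are not printed.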

How the data were processed

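RNA-seq was made from 1000 sorted cells per library by a modified Smart-seq2 protocol with molecular identifiers. The authors aligned reads with STAR to mm10, counted them per gene with HTSeq, removed duplicates by molecular identifier and deposited raw counts per gene. ATAC-seq peaks were called by the authors library by library in MACS2, and the deposited −log10 q-values were not used as values.

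Of 53801 genes listed, 19261 had a count in a control library and 12151 passed filterByExpr on the control samples. Symbols matched 53620 identifiers. Genes were tested in R 4.3.3 with edgeR 4.0.16 (TMM, quasi-likelihood test, Benjamini-Hochberg adjustment over all 12151 genes, threshold 0.05) on 8 samples: library 1, and libraries 2 and 3 summed, of gpSSCs and pSSCs in control and CKO cells. The CKO samples entered for the spread. The replicate number was a block, which leaves 3 residual degrees of freedom. The spread of each gene was drawn toward that of the other genes, with 26.2 prior degrees of freedom. The numbers come from the labels, which do not say what they share, and the pairing was checked in the data: gpSSC and pSSC libraries of the same number, each taken relative to its group mean, correlated at 0.595, 0.563 and 0.565. Since 2 and 3 are near copies, gpSSC 2 with pSSC 3 (0.545) and gpSSC 3 with pSSC 2 (0.564) correlated as well, so the check bears only on library 1 against the others. The control libraries totalled 1333260 to 5035209 counts.

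On simulated data with 200 changed genes among these 12151, the fit recovered 44 of 50 genes changed 4-fold and 5 of 50 changed 2-fold at 100 CPM or more, 9 of 50 and 0 of 50 below 100 CPM, and called 4 of 11951 unchanged genes. The simulated counts were drawn from the fitted model, with its own spread and the same change in both numbers. These figures therefore do not cover genes whose difference varies between numbers, or a spread that the model misses. The members and gene lists were chosen with earlier results of these data known. Named genes are list members, all transcription factors of the lists, and the 12 genes per direction with the largest value of the smaller within-number difference among called, non-overlapping genes with a gene name (predicted gene models left out) and at least 20 CPM in each library of the higher population. DESeq2 1.42.0, another scaling, other filters, thinning, other sample definitions and each library left out were tried as alternatives. Promoter sequences came from RefSeq (GRCm38.p6) and gene starts from GENCODE. The scRNA-seq libraries and CKO ATAC-seq libraries were not used here.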

Additional observations from a re-analysis of the deposited data

Results flagged for a closer look

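Serpina1d (chr12:103763594-103773592, mm10), a member of the alpha-1 antitrypsin family of protease inhibitors, was the 1 gene whose population difference was called different between control and CKO cells. It stood at 1130 normalised CPM in gpSSC control library 1, 1917 in library 2 and 2095 in library 3, and at 733, 663 and 652 in the pSSC control libraries. In CKO cells it stood at 5312, 5024 and 5830 in gpSSCs and at 636, 571 and 550 in pSSCs. The log2 difference, gpSSCs minus pSSCs, was 1.22 in control and 3.20 in CKO cells, a difference of −1.98 (edgeR quasi-likelihood test of the interaction with Benjamini-Hochberg adjustment, adjusted p = 0.00978). The call was lost by DESeq2 with the block (−2.10, adjusted p = 0.173), with 12 libraries as samples and the block (−1.88, adjusted p = 0.0536), without the block (−1.96, adjusted p = 1) and without pSSC control library 1 (−1.83, adjusted p = 0.338). It was kept with RLE size factors, with no filter on low counts, without replicate 1 in all groups and without each of the other control libraries. Without replicate 1 in all groups the near copies stood as the only replicates and 6615 genes passed, so the call kept there says little. The difference was negative under all 12 of these alternatives. All 3 CKO gpSSC libraries lay above all 3 control gpSSC libraries, while the pSSC libraries of both genotypes lay between 550 and 733. The gene has near-identical neighbours in its family, so reads could be split between copies.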

How the results depend on the processing

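The counts depend most on how the libraries are treated. Genes higher in gpSSCs and in pSSCs, 181 and 270 in the fit as reported, numbered 0 and 0 without the replicate block, 0 and 0 on control samples alone without the block, 943 and 977 with 12 libraries as samples and a block of 3 levels, 302 and 645 by DESeq2 with the block, 485 and 599 by DESeq2 on 3 against 3 libraries, 811 and 1007 at the study's thresholds (unadjusted p under 0.05 and log2 over 0.25), and 4259 and 4299 without replicate 1 in all groups. Leaving out 1 control library gave 96 to 192 and 66 to 279, the low values without gpSSC control library 1 (96 and 66) and pSSC control library 1 (115 and 155). The other settings, listed with both counts, stayed within 1.5 times: control samples alone with the block (157 and 231), 12 libraries without the block (264 and 300), RLE size factors (157 and 343), library totals (174 and 284), no filter on low counts (181 and 371), at least 5 CPM (227 and 303), thinning (184 and 282) and log2 over 1 (174 and 257). The count of genes whose difference depends on genotype, 1 as reported, was 0 without the block, 7 with 12 libraries and the block (Serpina1d not among them), 1 by DESeq2 with the block (another gene), 23 with no filter, 6615 without replicate 1 in all groups, and 0 to 3 with 1 control library left out. Without pSSC control library 1 it was 0. Of the 149 named genes, 127 were called. Across 21 settings 16 of 3124 values changed sign, all of genes not called in the fit as reported: Prg4 (−0.015 with RLE and −0.017 by DESeq2 with the block, and 0.061 to 0.81 with 1 control library left out), Pthlh (−0.32 with 12 libraries and no block, −0.31 by DESeq2 on 3 against 3, −0.94 without replicate 1 in all groups, −0.58 and −0.22 without gpSSC and pSSC control library 1, and −0.58 to 0.83 with 1 control library left out), Trps1 (0.089 and 0.031 with 12 libraries with and without the block, 0.84 without replicate 1 in all groups, and −0.21 to 0.81 with 1 control library left out, positive without gpSSC or pSSC library 1), Vegfa (0.017 without replicate 1 in all groups and −0.53 to 0.20 with 1 left out, positive without gpSSC control library 1) and Cd68 (0.30 with thinning and −0.92 to 0.36 with 1 left out, positive without gpSSC control library 1). The call was lost for all 127 genes without the block (8 samples or control samples alone), 58 without gpSSC control library 1, 40 without pSSC control library 1, 32 with 12 libraries and no block, 13 by DESeq2 on 3 against 3, 11 on control samples with the block, 10 with thinning, 7 with RLE, 6 by DESeq2 with the block and at most 3 in each other setting. The median log2 difference of all tested genes was 0.08 with TMM, −0.04 with RLE and 0.05 with totals, and the share of calls higher in gpSSCs was 40.1%, 31.4% and 38%. What sets library 1 apart was not tested. Only 2 samples stand behind each population.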
